A study of Arabidopsis thaliana with 6 samples.

Results

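The P3 phenotype of the Arabidopsis thaliana rps10 mutant was compared with the P2 phenotype of the same mutant, with ribosome footprints set against footprints and total RNA against total RNA. The comparison used every library labelled P3 or P2, which was 4 of the 6 libraries of the series: 1 footprint and 1 RNA library of P3, and 1 footprint and 1 RNA library of P2. Both groups were ecotype Col-0 plants labelled with the genotype Rps10 +/-, aged 9 to 10 weeks, and mitochondria were taken from their youngest leaves. Both had been raised as seedlings on 50 mg of kanamycin per litre and kept in short days (8 h light, 16 h dark). Each isolation took about 15 g of leaves, and chloramphenicol, which stalls mitochondrial ribosomes, was added at 100 µg/ml on thawing. The labels do not say how P3 plants differ from P2 plants in appearance. Each library pooled 15 mitochondrial preparations, so it averages over plants, and no library has a replicate. No difference below therefore has a replicate check, and no test or p-value could be given. RPS10 itself is a nuclear gene and is not among the 24 mitochondrial genes with values, so its level in P3 and P2 was not analysed here.

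RPS10 encodes ribosomal protein S10, part of the small subunit of mitochondrial ribosomes. The plant mitochondrial genome keeps a small set of genes for core subunits of the respiratory complexes and ATP synthase (oxidative phosphorylation, OXPHOS), for proteins that attach heme to cytochrome c, and for some ribosomal proteins, and mitochondrial ribosomes translate all of them. A ribosome protects a short piece of messenger RNA from nuclease, and sequencing those pieces shows where ribosomes sat, while sequencing of total RNA from the same lysate shows which transcripts were there.

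The origin of the reads was compared before the genes. Mitochondrial sequences of both classes, transfer and ribosomal RNA and the rest of the genome, made up 89.4% of the footprint reads in P3 and 91.8% in P2, and 95.9% of the RNA reads in P3 and 96.4% in P2. Footprints on mitochondrial coding sequences (CDS) were a smaller share in P3. They numbered 48653 of 11956216 filtered reads in P3, a share of 0.407% (95% Wilson interval 0.403 to 0.411), and 80146 of 15131283 in P2, a share of 0.530% (0.526 to 0.533), so the P3 share was 0.768 times the P2 share. The intervals do not overlap, but they cover counting error only, since amplified reads are not independent molecules and plants were pooled. In RNA the CDS shares were closer, with 37.4% of 5670742 reads in P3 and 37.3% of 8371171 reads in P2.

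When transfer and ribosomal RNA were set aside, CDS held 14.9% of the remaining mitochondrial footprints in P3 and 17.3% in P2. Plastid reads were 0.833% of the footprint reads in P3 and 0.729% in P2, and nuclear reads were 2.95% in P3 and 2.88% in P2. The protocol in the labels isolates mitochondria, so plastid and nuclear reads count as sequence from other compartments. In RNA, plastid reads were 1.40% in P3 and 1.36% in P2, while nuclear reads were 0.512% in P3 and 0.859% in P2. Reads that mapped nowhere were 6.85% of footprint reads in P3 and 4.60% in P2, and 2.19% of RNA reads in P3 and 1.37% in P2. The largest difference in these classes lay in how well reads matched the mitochondrial genome. Reads with 1 to 5 mismatched bases were 6.27% of the mitochondrial RNA reads outside transfer and ribosomal RNA in P3 (6.25 to 6.29) and 17.2% in P2 (17.2 to 17.3), a 2.75-fold lower share in P3. In footprints, over the same part of the genome, they were 20.0% in P3 (19.9 to 20.2) and 17.5% in P2 (17.4 to 17.6). Reads that matched several places were 11.5% of such footprint reads in both phenotypes, and 13.1% in P3 RNA and 12.3% in P2 RNA. The part of mismatch, nuclear reads and unmapped reads in the gene values below was not tested.

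**Figure D1:**
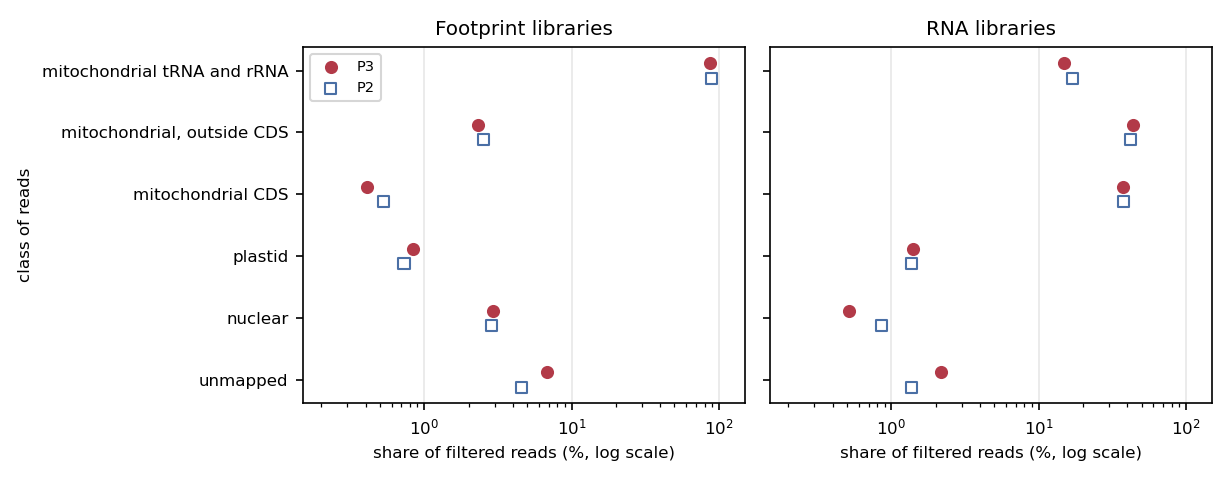
Share of filtered reads (percent, log scale) in 6 classes of sequence, for P3 (filled circles) and P2 (open squares), 1 library each, with footprints on the left and RNA on the right. In footprints the mitochondrial CDS share was 0.407% in P3 and 0.530% in P2; in RNA the nuclear share was 0.512% in P3 and 0.859% in P2.

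Footprint levels were compared gene by gene to show which mitochondrial genes held a different part of the footprints in P3 than in P2. Genes that are not part of OXPHOS held 34.7% of the summed footprint TPM in P3 and 25.8% in P2. All 11 of them, for ribosomal proteins, cytochrome c maturation, the maturase matR and the transporter tatC, had a log2 ratio of P3 over P2 above 0, against 4 of the 13 OXPHOS genes and 62.5% of all 24 genes. Most of the difference in the summed share lay in rpl16 alone, which held 13.8% in P3 and 8.51% in P2. The median log2 ratio was 0.43 for genes outside OXPHOS and -0.25 for OXPHOS genes, a gap of 0.69. The median of all genes was 0.05. Levels are in TPM, a length-corrected unit that sums to 1000000 over the 24 genes in each library, so a ratio compares a gene's part of that sum; amounts per mitochondrion cannot be read from it. Scaling the TPM by the CDS share of all reads moved every footprint ratio down by 0.38, and then 6 of the 11 genes outside OXPHOS and 0 of the 13 OXPHOS genes were above 0; with ratios centred on the median gene the counts were 10 of 11 and 2 of 13. Each of these scalings moves all footprint ratios equally, so the gap between the medians cannot change and was not checked by them. The CDS share counts reads without length correction and is not split by gene, so it may also cover genes without TPM.

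With a difference of 1.5-fold (0.58 on the log2 scale) as the size to be counted, footprints were higher in P3 for 5 of 24 genes (20.8%) and lower for 2 (8.33%). The 5 higher genes were rpl16, tatC, ccmB, ccmFN2 and matR, all outside OXPHOS, and the 2 lower genes were atp9 and atp4, both of the ATP synthase. The nearest gene on the other side of the threshold was rps4 above (0.43) and cox1 below (-0.46). None of the 24 genes reached 2-fold. The ratios of tatC, ccmB and ccmFN2 were the same to every digit kept (0.654536), and what gives this tie was not tested. With CDS-share scaling none of the 5 was counted as higher, and atp1, atp4, atp6.1, atp8, atp9, cox1, nad3 and nad4L were counted as lower. The ratios of the 5 stayed above 0, which a shift of -0.38 could not change. The TPM tables carry no reads per gene, and the depth of each gene's value is therefore unknown.

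**Figure D2:**
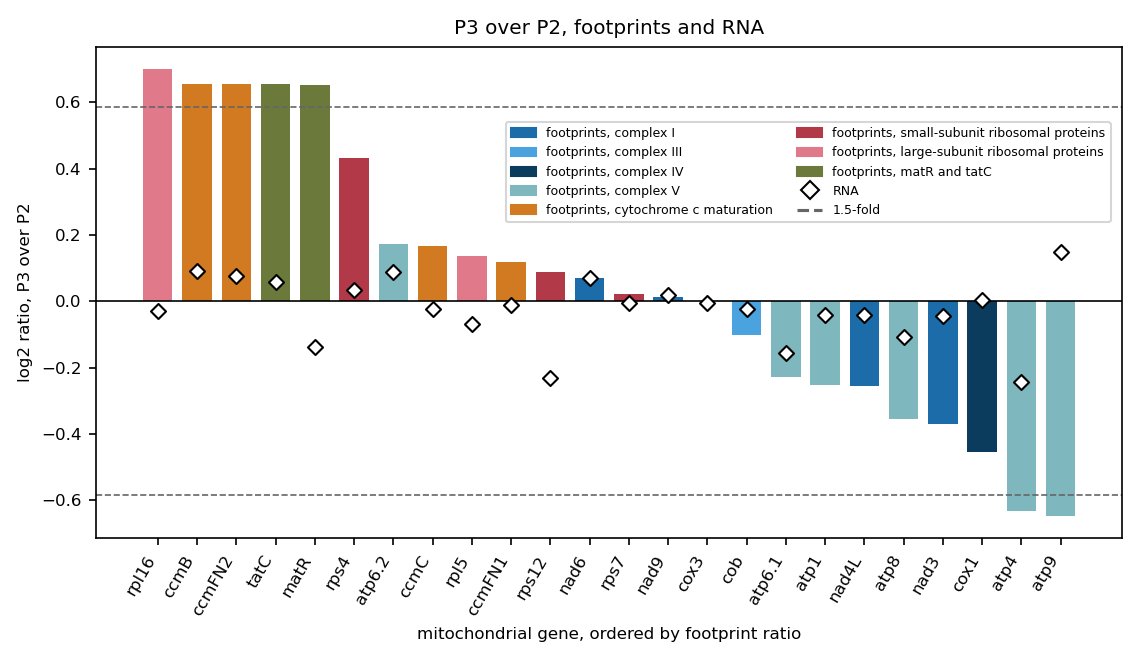
Log2 ratio of P3 over P2 for each of the 24 mitochondrial genes, with footprints as bars coloured by the role of the gene and RNA as diamonds; dashed lines mark 1.5-fold, and each value compares 1 P3 with 1 P2 library. Footprint ratios ran from 0.70 for rpl16 to -0.65 for atp9, all 11 genes outside OXPHOS were above 0 on this scale (6 with CDS-share scaling, 10 when centred on the median gene), and RNA ratios stayed between 0.15 and -0.24.

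The ATP synthase (complex V), which makes ATP at the end of the respiratory chain, held 24.2% of the summed footprint TPM in P3 and 31.0% in P2. Of its 6 genes, 2 were lower by the 1.5-fold rule, against 8.33% of all genes, none was higher, and the median log2 ratio was -0.30, against 0.05 over all genes. The gene atp9, for the subunit of the rotating ring in the membrane, had 63849 footprint TPM in P3 and 99971 in P2 (log2 ratio -0.65). It ranked 5 among the 24 genes in P3 and 2 in P2. The gene atp4, for a subunit of the stalk that holds the enzyme in place, had 16678 footprint TPM in P3 and 25862 in P2 (-0.63). The catalytic-head gene atp1 had 64181 TPM in P3 and 76482 in P2 (-0.25), and atp8, for a small membrane subunit, had 21378 in P3 and 27317 in P2 (-0.35). These 4 genes all had ratios below 0 under every scaling tried, though none of these scalings raised footprint ratios enough to change that. The copies of atp6, which encodes the proton channel subunit, did not go the same way, with 45837 TPM in P3 and 53707 in P2 for atp6.1 (-0.23) and 29667 TPM in P3 and 26307 in P2 for atp6.2 (0.17). Since the copies share most of their sequence, reads could be divided between them in the authors' counting, and with CDS-share scaling both were below 0.

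In complex I, the NADH dehydrogenase, 0 of the 4 genes measured passed 1.5-fold, with a median of -0.12. The membrane subunit gene nad3 had 17203 footprint TPM in P3 and 22248 in P2 (-0.37), and nad4L had 9938 in P3 and 11865 in P2 (-0.26). The membrane subunit gene nad6 had 56646 in P3 and 53949 in P2 (0.07), and nad9, for a subunit of the peripheral arm, had 48293 in P3 and 47890.3 in P2 (0.01). With CDS-share scaling nad6 and nad9 were below 0, and nad9 was also below 0 when centred on the median gene. In cytochrome c oxidase (complex IV), cox1, which carries the oxygen-reducing centre, had 37562 TPM in P3 and 51493 in P2 (-0.46). The gene cox3, for another core subunit, had the highest footprint level in both phenotypes, with 189713 in P3 and 189461 in P2 (0.0019, and below 0 with CDS-share scaling or when centred on the median gene). For cob, the cytochrome b of complex III, the level was 51607 in P3 and 55337 in P2 (-0.10). Summed over the 13 OXPHOS genes, footprints took 65.3% of the TPM in P3 and 74.2% in P2, and complex V made up most of that difference.

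Genes for ribosomal proteins were on the other side. Footprints on the large-subunit genes rpl16 and rpl5 took 16.9% of the summed TPM in P3 and 11.3% in P2. Most of this difference lay in rpl16, with 13.8% in P3 and 8.51% in P2. The gene rpl16 had 138128 footprint TPM in P3 and 85059 in P2 (0.70), the largest ratio of all 24 genes, and ranked 2 in P3 and 3 in P2. In TAIR10.1 it overlaps rps3, and the sources used here do not say how shared reads were assigned. The gene rpl5 had 30425 TPM in P3 and 27662 in P2 (0.14). The small-subunit genes rps4, rps12 and rps7 took 11.4% in P3 and 9.98% in P2, and none of them passed 1.5-fold. Of these, rps4 had 37677 TPM in P3 and 27925 in P2 (0.43), rps12 had 65618 in P3 and 61658 in P2 (0.09), and rps7 had 10337 in P3 and 10182 in P2 (0.02). With CDS-share scaling rpl16 and rps4 stayed above 0 and rpl5, rps12 and rps7 were below it. The ratio of rps7 was also below 0 when ratios were centred on the median gene.

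Cytochrome c maturation genes, whose products carry heme to cytochrome c, took 2.75% of the footprint TPM in P3 and 2.16% in P2, with a median log2 ratio of 0.41. Of the 4 members, 2 were higher by the 1.5-fold rule, against 20.8% of all genes. The median was 0.17 over the members of at least 5000 TPM, which leaves out ccmB, and 0.03 with CDS-share scaling, where no member was counted as higher. The transporter gene ccmB had 4431 TPM in P3 and 2815 in P2 (0.65), the lowest footprint level of the 24 genes in both phenotypes. The gene ccmFN2 had 7550.1 TPM in P3 and 4796 in P2 (0.65), ccmC had 9583 in P3 and 8541 in P2 (0.17), and ccmFN1 had 5919 in P3 and 5454 in P2 (0.12). With CDS-share scaling ccmC and ccmFN1 were below 0. The pair outside these groups was higher as well. The gene matR, which encodes a maturase that takes part in intron splicing, had 21283 TPM in P3 and 13538 in P2 (0.65), and tatC, whose product belongs to the twin-arginine translocase, had 16497 in P3 and 10479.9 in P2 (0.65).

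**Figure D3:**
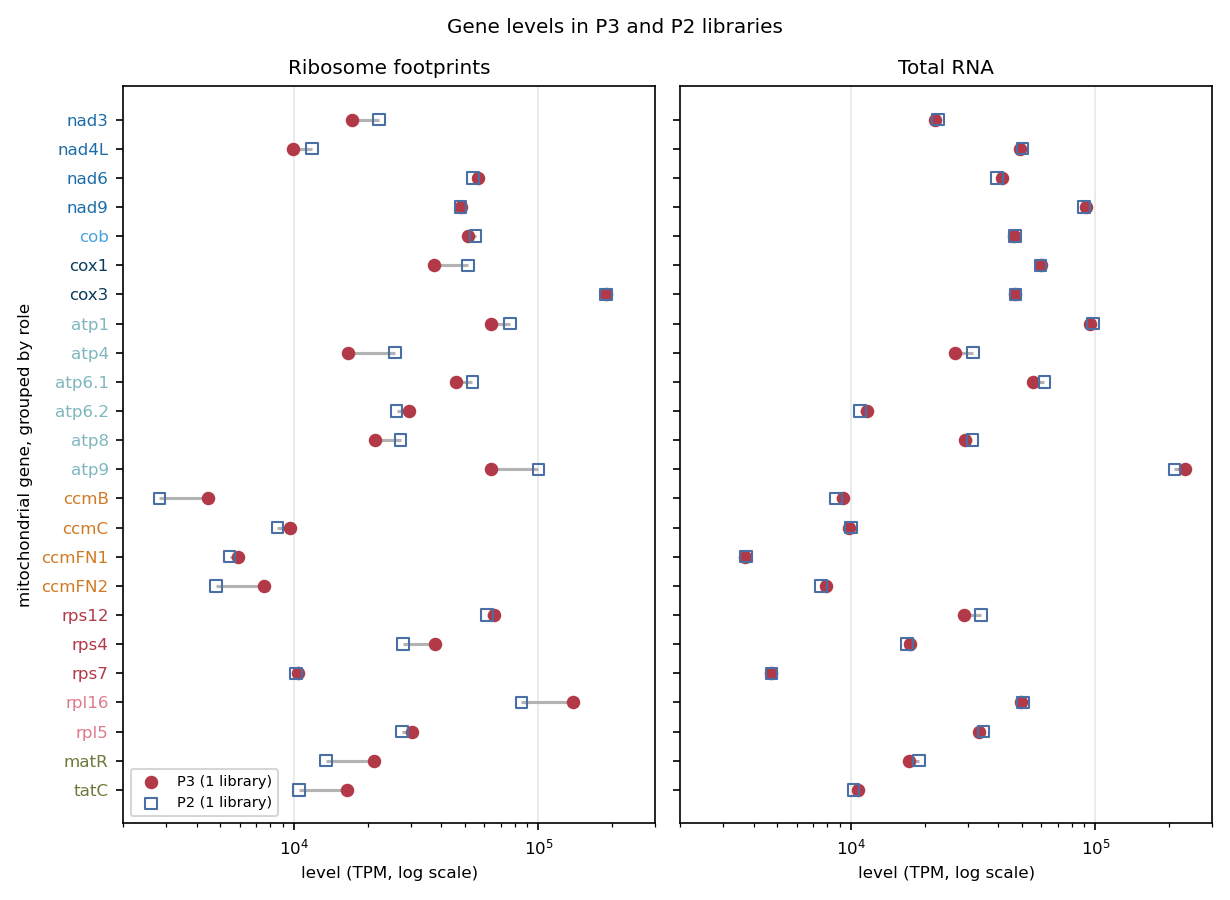
Footprint levels (left) and RNA levels (right) in TPM on a log scale for the 24 genes, grouped by role from complex I at the top to matR and tatC at the bottom, with P3 as filled circles and P2 as open squares, 1 library each. The P3 and P2 symbols lie apart for footprints of rpl16, matR, tatC, ccmB, ccmFN2, atp4 and atp9, and lie close together for RNA of most genes.

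RNA levels were compared to show whether the transcripts differed in the same way. Their ratios were much closer to 0 than those of footprints. No gene was 1.5-fold higher (0 of 24, 0%) or 1.5-fold lower (0 of 24, 0%), and 9 of 24 ratios (37.5%) were above 0, 5 of 13 for OXPHOS genes and 4 of 11 for the others. These signs depend on the scaling: with atp9 left out, 8 of 12 OXPHOS genes and 8 of 11 others were above 0, and when centred on the median gene 6 of 13 and 6 of 11 were. RNA log2 ratios ran from -0.24 to 0.15 with a standard deviation over genes of 0.098, against 0.41 for footprint ratios, which were 4.21 times as widely spread. The footprint libraries also held far fewer CDS reads than the RNA libraries, and how much of the wider spread that gives was not tested. Of the 24 RNA ratios, 18 lay within 0.1 of 0. The RNA of atp9, the most abundant of the 24 in both phenotypes, had 233015 TPM in P3 and 210135 in P2 (0.15), the highest RNA ratio, while its footprints had the lowest footprint ratio. Next were ccmB with 9244 TPM in P3 and 8669 in P2 (0.09), atp6.2 with 11578 in P3 and 10892 in P2 (0.09), ccmFN2 with 7931 in P3 and 7526 in P2 (0.08) and nad6 with 41609 in P3 and 39609.9 in P2 (0.07).

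At the lower end, atp4 RNA had 26648 TPM in P3 and 31525 in P2 (-0.24), and rps12 RNA had 29027 in P3 and 34086 in P2 (-0.23). The gene atp4 was thus below 0 in both kinds of library, and rps12 was below 0 in RNA and above it in footprints. The others at this end were atp6.1 with 55462 TPM in P3 and 61822 in P2 (-0.16), matR with 17237 in P3 and 18957 in P2 (-0.14) and atp8 with 29161 in P3 and 31392 in P2 (-0.11). The remaining 14 genes had RNA ratios between -0.07 for rpl5 and 0.06 for tatC. The OXPHOS genes held 80.8% of the summed RNA TPM in P3 and 80.0% in P2. Median RNA ratios were -0.02 for OXPHOS genes and -0.01 for genes outside OXPHOS, so the gap seen in footprints (0.69) was 0.01 in RNA. Without atp9, the most abundant transcript, both medians were above 0 (0.01 for OXPHOS genes and 0.03 for the others). Over the 24 genes the footprint and RNA ratios had a Pearson r of 0.26 and a Spearman rho of 0.29, given as a description of genes that share libraries and a fixed sum and are not independent replicates.

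**Figure D4:**
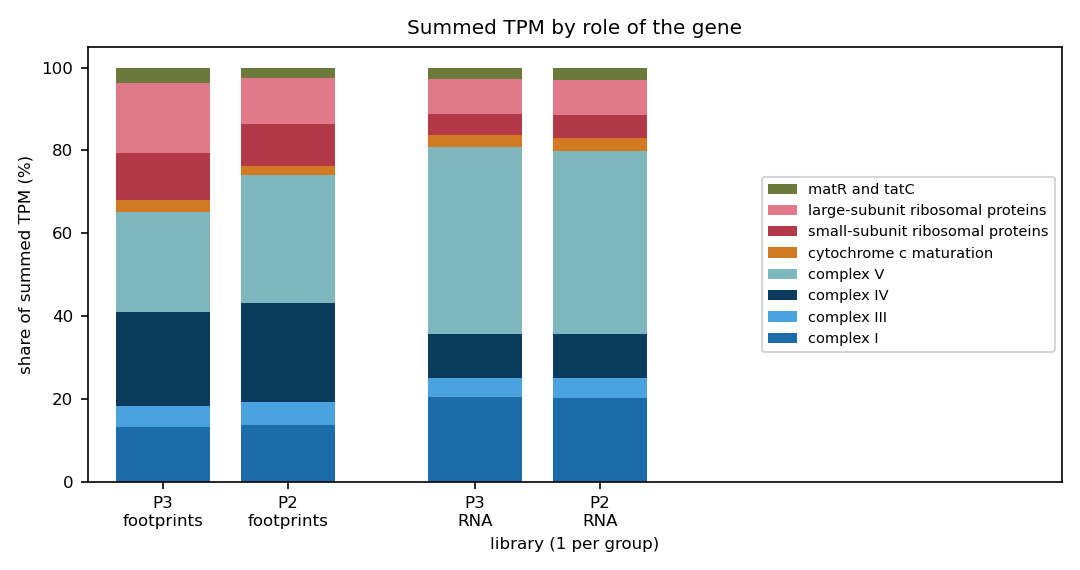
Share of the summed TPM (percent) held by genes of each role in the footprint libraries (left pair) and RNA libraries (right pair), P3 to the left of P2 in each pair, 1 library per bar. In footprints complex V held 24.2% in P3 and 31.0% in P2. Large-subunit ribosomal protein genes held 16.9% of footprint TPM in P3 and 11.3% in P2, with 13.8% and 8.51% from rpl16 alone. In RNA complex V held 45.1% in P3 and 44.3% in P2.

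Translation efficiency, here a gene's footprint TPM divided by its RNA TPM, sets both comparisons together. Its ratios were spread about as widely as the footprint ratios, with a standard deviation over genes of 0.40. Efficiency was at least 1.5-fold higher in P3 for 3 of 24 genes (12.5%) and lower for 1 (4.17%). With CDS-share scaling the counts were 0 higher and 7 lower, and with cox3 and atp9 left out they were 2 higher and 0 lower. On the TPM scale it was higher for matR, with 1.23 in P3 and 0.714 in P2 (log2 ratio 0.79), for rpl16, with 2.79 in P3 and 1.68 in P2 (0.73), and for tatC, with 1.55 in P3 and 1.02 in P2 (0.60). It was lower for atp9, with 0.274 in P3 and 0.476 in P2 (-0.80). Just short of the threshold were ccmFN2, with 0.952 in P3 and 0.637 in P2 (0.58), and ccmB, with 0.479 in P3 and 0.325 in P2 (0.56). On the lower side cox1 came after atp9, further from the threshold, with 0.628 in P3 and 0.863 in P2 (-0.46). The next lowest were the ATP synthase gene atp4, with 0.626 in P3 and 0.820 in P2 (-0.39), nad3, with 0.781 in P3 and 0.979 in P2 (-0.33), and atp8, with 0.733 in P3 and 0.870 in P2 (-0.25). The ratio of rps12 was 0.32, with an efficiency of 2.26 in P3 and 1.81 in P2, made up of an RNA ratio of -0.23 and a footprint ratio of 0.09. With CDS-share scaling its efficiency ratio was -0.06 and its footprint ratio -0.29, both below 0.

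All 11 genes outside OXPHOS had efficiency ratios above 0, with a median of 0.40, and 11 of the 13 OXPHOS genes had ratios below 0, with a median of -0.21; over all 24 genes 54.2% were above 0. With CDS-share scaling 6 of the 11 and 0 of the 13 were above 0, and with cox3 and atp9 left out and the rest rescaled 10 of the 11 (rps7 below). The 2 OXPHOS genes above 0 were cox3 (0.0061) and atp6.2 (0.09). Among those below 0, nad6 (-0.000665) and nad9 (-0.00839) were also close to it. The gene cox3 had the highest efficiency, 4.03 in P3 and 4.02 in P2, and nad6 had 1.36 in both. Ranges within groups were wide: complex V ran from -0.80 for atp9 to 0.09 for atp6.2, and the small-subunit ribosomal genes from 0.03 for rps7 to 0.40 for rps4. With ratios centred on the median gene, tatC was no longer counted as higher.

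The reading frame of the footprints was compared because ribosomes move 3 bases at a time, so footprints of translating ribosomes fall unevenly over the frames of a gene. The deposited periodicity values give the share of footprints in frame 0, 1 and 2 for 140 items: the 24 genes above, 32 exons of genes with introns and 84 open reading frames of unknown function. Frame 0 shares did not move one way between P3 and P2. Over the 24 genes, frame 0 was higher in P3 for 12 and lower for 12, with a median of 45.0% in P3 and 47.0% in P2 and a median difference per gene of -0.0967 points. Over all 123 items with values in both phenotypes it was higher for 59 (48%), lower for 56 (45.5%) and equal for 8. Reads per item were not given, so no interval was set on these shares. Shares of some items are fractions with small denominators and can rest on few reads. Those of ccmB in P3, for example, were 50.0%, 32.1% and 17.9%.

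Among single genes, the frame 0 share was higher in P3 for tatC, with 55.6% in P3 and 49.6% in P2, for atp6.2, with 47.1% in P3 and 41.2% in P2, and for atp8, with 59.3% in P3 and 55.2% in P2. The share of atp8 was the highest of the 24 genes in P3. It was lower in P3 for nad3, with 36.7% in P3 and 44.4% in P2, for atp4, with 43.7% in P3 and 49.8% in P2, for ccmFN1, with 41.2% in P3 and 46.9% in P2, and for atp9, with 35.1% in P3 and 40.7% in P2. Both genes counted as lower in footprints had lower frame 0 shares, as had 12 of all 24 genes. Of the 5 genes counted as higher, tatC had a higher frame 0 share, and matR (35.0% in P3 and 39.7% in P2), ccmFN2 (31.3% in P3 and 35.3% in P2), ccmB (50.0% in P3 and 53.1% in P2) and rpl16 (23.1% in P3 and 23.9% in P2) had lower ones. An even spread gives 33.3% per frame, and the largest frame of rpl16 was frame 1, with 65.3% in P3 and 61.4% in P2. Over the 24 genes the footprint ratio and the frame 0 difference had a Pearson r of 0.08 and a Spearman rho of 0.08, as a description only.

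The largest frame was the same in P3 and P2 for 22 of the 24 genes. It differed for atp9, where frame 1 led in P3 (36.2%, beside 35.1% in frame 0) and frame 0 led in P2 (40.7%), and for ccmFN2, where frame 1 led in P3 (44.6%) and frame 2 led in P2 (40.0%). Frame 1 of ccmFN2 held 44.6% in P3 and 24.7% in P2, and this difference of 19.9 points was the widest of any frame among the 24 genes. The footprint TPM of ccmFN2 ranked 22 of the 24 in P3 and 23 in P2, and its reads were not given.

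**Figure D5:**
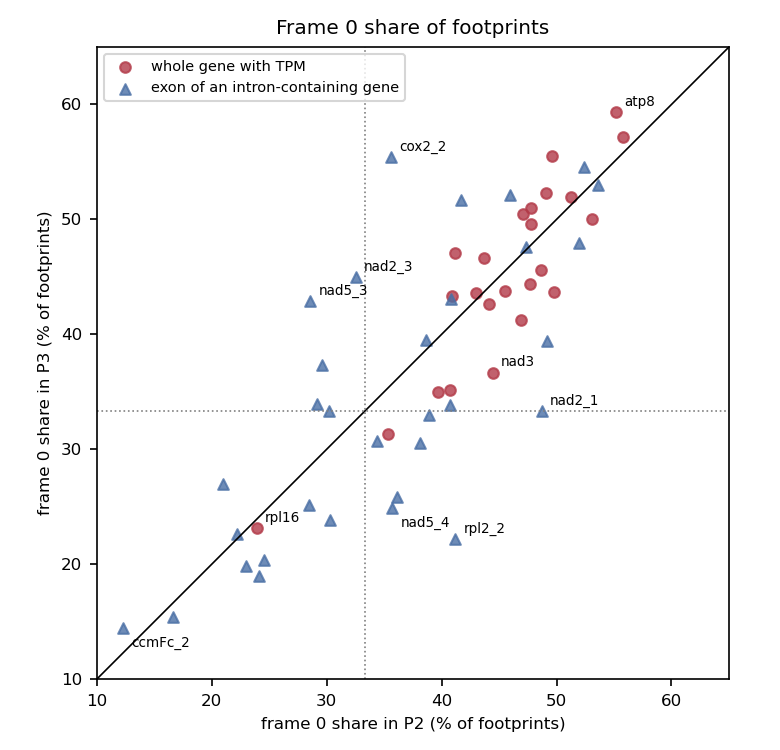
Frame 0 share of footprints (percent) in P3 on the vertical axis and P2 on the horizontal axis, for the 24 genes with TPM (circles) and 32 exons of intron-containing genes (triangles), 1 library per phenotype; the solid line marks equal shares and dotted lines the even share of 33.3%. The genes lie within 10 points of the line. The exons reach further from it, to 55.4% in P3 and 35.6% in P2 for the second exon of cox2. Reads per exon were not given.

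Genes with introns had no TPM and entered through their exons. Splicing joins these exons, and for nad1, nad2 and nad5 it joins pieces of separate transcripts (trans-splicing). Whether an exon's frame 0 starts at the start codon or at the first base of the exon is not stated in the sources used here, so the values are compared only between P3 and P2. The frame 0 share was higher in P3 for 15 of the 32 exons and lower for 17. The 5 widest differences on each side among exons and genes, a ranking chosen after the values were seen, were those of cox2 exon 2 (55.4% in P3 and 35.6% in P2), nad5 exon 3 (42.9% in P3 and 28.6% in P2), nad2 exon 3 (45.0% in P3 and 32.5% in P2), nad7 exon 5 (51.7% in P3 and 41.7% in P2) and nad4 exon 1 (37.3% in P3 and 29.6% in P2) on the higher side. On the lower side they were rpl2 exon 2 (22.2% in P3 and 41.2% in P2), nad2 exon 1 (33.3% in P3 and 48.7% in P2), nad5 exon 4 (24.9% in P3 and 35.7% in P2), rps3 exon 2 (25.8% in P3 and 36.1% in P2) and nad5 exon 5 (39.4% in P3 and 49.2% in P2). Exons of the same gene thus lay on both sides, as in nad2 and nad5. Shares of several exons are also fractions with small denominators. Among them are nad5 exons 1, 3 and 5, rpl2 exon 2, nad2 exon 1, nad7 exon 5 and cox2 exon 2. Differences of exons, and their largest frames below, can therefore rest on few reads.

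The largest frame differed between P3 and P2 for 9 of the 32 exons and was tied in 1 of the phenotypes for 2 more. In cox2 exon 2, nad4 exon 1 and nad5 exon 3 it was frame 0 in P3 and frame 1 in P2, and in nad2 exon 3 it was frame 0 in P3 and frame 2 in P2. In nad2 exon 1, nad5 exon 1 and nad7 exon 4 it was frame 2 in P3 and frame 0 in P2. In rps3 exon 2 it was frame 1 in P3 and frame 0 in P2, and in nad7 exon 2 it was frame 1 in P3 and frame 2 in P2. Other exons kept a strong bias, such as nad4 exon 4, with 68.8% in frame 2 in P3 and 66.2% in P2, and nad7 exon 3, with 59.8% in P3 and 53.7% in P2 in the same frame.

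The open reading frames of unknown function carried the widest differences and the coarsest values. Of 84, 70 had shares in P3 and 74 in P2, 67 had them in both, and 39 of these 67 held a share of exactly 0% or 100% in 1 or both phenotypes. Over the 67, frame 0 was higher in P3 for 32, lower for 27 and equal for 8. The largest positive differences of frame 0 among all items were those of ORF107F (100% in P3 and 0% in P2), ORF107E (50.0% in P3 and 0% in P2), ORF122C and ORF184 (each 66.7% in P3 and 20.0% in P2) and ORF105A (44.4% in P3 and 0% in P2). The largest negative differences were those of ORF107B and ORF160 (each 0% in P3 and 100% in P2) and ORF187 (0% in P3 and 57.1% in P2), followed by ORF102B, ORF106C, ORF116 and ORF158 (each 0% in P3 and 50.0% in P2).

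The largest frame differed between the phenotypes for 17 of these 67 open reading frames and was tied in 19. It was frame 0 in P3 and frame 2 in P2 for ORF107F, ORF117 and ORF184, frame 0 in P3 and frame 1 in P2 for ORF215A, frame 1 in P3 and frame 0 in P2 for ORF102B, ORF107B and ORF160, and frame 1 in P3 and frame 2 in P2 for ORF102, ORF152A, ORF164 and ORF262. It was frame 2 in P3 and frame 0 in P2 for ORF101B, ORF157, ORF187 and ORF294, and frame 2 in P3 and frame 1 in P2 for ORF139B and ORF145B. The same frame led in both for 31. Among these were ORF107G, with 79.7% in frame 2 in P3 and 87.4% in P2, and ORF149, with 50.4% in frame 0 in P3 and 45.2% in P2.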

How the data were processed

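Libraries were grouped by the titles in the labels, and the wild-type libraries were not used. Reads were processed with STAR and featureCounts, per the submitters' processing notes; no version, setting, build or annotation is named in the sources used here. The authors gave gene levels as TPM for 24 mitochondrial genes. Shares of footprints by frame came as a fraction per item in the deposited periodicity tables and are printed as percent. Read numbers per class of sequence were deposited as whole counts with a fraction beside each, and those fractions were recomputed from the numbers. The class of mitochondrial CDS reads is not split by gene.

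Log2 ratios, P3 over P2, were computed without a pseudocount with Python 3.11.15, pandas 2.3.3 and SciPy 1.17.1, and the arithmetic was tested on simulated data. Shares of reads carry 95% Wilson intervals for counting error only. With 1 library per group, no model or test was fitted. The scalings tried were ratios centred on the median gene (median-of-ratios), TPM multiplied by the CDS share of reads, and TPM without the most abundant gene; thresholds of 0.32 on the log2 scale and of 2-fold, a pseudocount of 100 TPM and a minimum of 5000 TPM were also tried. Genes named in full were those past 1.5-fold, the 5 highest and 5 lowest ratios of each measure, and members of the lists by complex and role; for frames, the 5 largest differences each way and items whose largest frame differed. The members and lists were chosen with earlier results of these data known. The TAIR10.1 table of RefSeq held all 24 names and served for names and neighbours only. Intervals per gene, planned for count data, were not made because the files hold TPM. Gene sequences were not used here.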

Additional observations from a re-analysis of the deposited data

How the results depend on the processing

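Median-of-ratios scaling, the pseudocount of 100 TPM and the minimum of 5000 TPM kept each count of genes past 1.5-fold within 1.5 times its value, and RNA counts were 0 under every setting tried. Footprint counts were 0 higher and 0 lower at 2-fold, 6 and 5 at a threshold of 0.32 on the log2 scale, and 0 and 8 with CDS-share scaling. Efficiency counts were 0 and 0 at 2-fold, 6 and 4 at that lower threshold, 0 and 7 with CDS-share scaling, and 2 and 0 with the top gene of each kind left out, where atp9 drops out by construction. With the CDS share taken among mitochondrial reads outside transfer and ribosomal RNA, a setting chosen after seeing the data, they were 0 and 4 for footprints and 1 and 3 for efficiency. No gene past 1.5-fold turned to the other side under any scaling tried. This was fixed in advance, because the largest shift of the ratios (-0.38) is smaller than the threshold of 0.58. CDS-share scaling turned the sign of 16 of 72 gene values, none of them past 1.5-fold.

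The P3 over P2 ratio of the CDS share was 0.789 for footprints and 1.01 for RNA relative to all mitochondrial reads, and 0.856 and 0.981 relative to those outside transfer and ribosomal RNA, so the RNA ratio has no stable direction. The median frame 0 difference, 0 points over all items, was -0.0967 for genes with TPM, 1.44 for items led by frame 0 in both phenotypes, and -0.452 when set against the larger other frame. Chosen after seeing the data, it was -0.721 for genes and exons and 0.475 for the frame that led in P2. Leaving out a library was not possible with 1 per group. No paired analysis was possible because each group had 1 library. Variation between plants and preparations is unknown, and no gene's number of reads is given.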

Other observations

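Neighbouring genes in TAIR10.1 differed in their ratios where both had TPM. Ratios could not be compared for rps3 with rpl16 or for tatC (mttB in TAIR10.1) with rpl2, as rps3 and rpl2 had no TPM. In the pair nad3 and rps12, the P3 over P2 log2 ratio was -0.37 for nad3 and 0.09 for rps12 in footprints, and -0.05 and -0.23 in RNA, so each gene of the pair was the lower one in 1 kind of library. In the pair nad4L and atp4, footprint ratios were -0.26 for nad4L and -0.63 for atp4, and RNA ratios were -0.04 and -0.24, with atp4 the lower one in both. In the overlapping pair rps3 and rpl16, rps3 had no TPM, and both of its exons had lower frame 0 shares in P3, as had 17 of all 32 exons (19.0% in P3 and 24.1% in P2 for exon 1, 25.8% in P3 and 36.1% in P2 for exon 2).

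The footprint ratios of ccmB, ccmFN2 and tatC were the same to every digit kept (1.57411-fold), and that of matR was close (1.57216-fold). What gives this tie was not tested, so it is not read as a shared change. Levels of these genes in P3 ran from 4431 TPM for ccmB to 21283 TPM for matR. Their RNA ratios ran from -0.14 for matR to 0.09 for ccmB.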
